A study of Mus musculus with 6 samples.

Results

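The nuclear genes for the subunits of the 5 oxidative phosphorylation complexes were followed across 6 lines of mpkCCD cells, which are cultured mouse cells of the kidney's cortical collecting duct. Members were chosen by gene symbol, as symbols that begin with Ndufa, Ndufb, Ndufc, Ndufs or Ndufv and a number, Sdha to Sdhd, and symbols that begin with Uqcr, with Cox4 to Cox8 and a letter, or with Atp5. Of 18193 genes with a probe set annotated to a single gene, 81 were members: 35 of complex I, 4 of complex II, 8 of complex III, 17 of complex IV and 17 of complex V, the ATP synthase. Where a gene had several such probe sets, the brightest on average was used. The lines were the original cells and clones 2, 3, 9, 10 and 11 derived from them, all kept with dDAVP, a vasopressin analog, at 0.1 nM for 5 days. Clone 2 is labelled as not expressing the water channel aquaporin 2 (AQP2), and the other 5 lines as expressing it. Each line had 1 array, so effects of line, culture and array cannot be told apart, clone 2 was assumed to vary like the other lines, and p-values measure only the spread between these arrays.

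Oxidative phosphorylation is the last stage of aerobic energy production, in the inner membrane of mitochondria. Complex I takes electrons from NADH and complex II takes them from succinate, complex III passes them from ubiquinol to cytochrome c, complex IV passes them on to oxygen, and complex V uses the proton gradient made on the way to synthesise ATP. All but complex II hold subunits encoded by mitochondrial DNA beside those encoded in the nucleus, so their assembly needs both genomes. In the collecting duct, sodium pumping by principal cells is a main use of this ATP.

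The lines carried collecting duct markers. All 7 epithelial markers passed the filter on low signal, with a summed signal of 92327 in clone 2 and 100620 to 115020 in the expressing lines. Of 10 principal cell markers 9 passed it, Aqp4 being below it, and their summed signal was 8248.7 in clone 2 and 16219 to 22690 in the others. Of other cell types, 2 of 6 intercalated cell, 1 of 5 proximal tubule (Lrp2), 1 of 5 endothelial and leukocyte (Cd68), 0 of 4 loop and distal tubule and 0 of 6 fibroblast markers passed it. Their summed signals in clone 2 and in the expressing lines were 1108 and 762 to 1102 for intercalated cells, 272 and 907 to 1191 for the proximal tubule, 756 and 221 to 505 for endothelium and leukocytes, 185 and 60.4 to 168 for the loop and distal tubule, and 195 and 120 to 246 for fibroblasts. The summed signal of clone 2 was thus outside the range of the other lines for all of these lists but the last. Single genes did not all go with the sums. Of the intercalated markers, Atp6v1b1 read 949.3 in clone 2 against 413 to 687.3, and Aqp6 read 39 against 221.8 to 328.1. Aqp3, Krt19 and Cldn7 were highest in clone 2, and Avpr2 and Scnn1b lay inside the range of the others. The loop and distal tubule sum held only markers below the filter. The part of these differences in the results was not tested. Aqp2 itself read 159.3 in clone 2, while clones 3, 9, 10 and 11 read 1697.9, 4683.4, 1066.4 and 6577.7 and the original cells 3822.4. The median signal of an array lay between 79.6 in clone 2 and 88.6 in clone 10.

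Of the 81 subunit genes, 74 passed the filter, a mean signal over the 6 arrays above 85.46. They were 33 of complex I, all 4 of complex II, all 8 of complex III, 12 of complex IV and all 17 of complex V. The 7 others were Ndufa4l2, Ndufb4, Cox4i2, Cox6a2, Cox6b2, Cox7b2 and Cox8b. For Ndufb4 the filter left out only the single-gene probe set, at 16.4 to 69.1. A pair of probe sets shared with the near-identical copies Ndufb4b and Ndufb4c read 2896.1 to 5186.3. The subunits Ndufs6, Ndufa11 and Cox7b had no single-gene probe set and were not analysed here as members. Cyc1 of complex III and Ndufab1 of complex I did not match the symbols and were counted among the electron carriers below. The probe set shared by Ndufa11 and Ndufa11b read 2412.7 in clone 2 and 3200 to 4168 in the expressing lines (limma adjusted p = 0.102), and that shared by Ndufs6 and Ndufs6b read 4188 in clone 2 and 2393.4 to 3634.2 in the others.

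Promoter sequences were available for 66 of the members, as 71 windows of 300 bases, from 250 before to 50 after the annotated start (RefSeq, assembly GRCm38.p6). Motifs of 4 factors known for respiratory chain genes were searched on both strands: GCGCATGCG for NRF1, CCGGAAG for ETS factors such as GABP, AAGATGGCG for YY1 and TCAAGGTCA for the oestrogen-related receptors. The NRF1 letters stood in 9.86% of the subunit windows and in 1.75% of all 32851 windows. The ETS letters stood in 23.9% against 8.86%, those of YY1 in 8.45% against 1.4%, and those of the oestrogen-related receptors in 2.82% against 0.423%. In all, 26 of the 71 windows held at least 1 of these motifs. Subunit windows were also richer in G and C, with a median of 58.3% against 52.7%. The NRF1 letters nearly read the same on both strands, so a match on one strand often overlaps a match on the other. The windows of Cox6a1, the common form of a complex IV subunit, and Atp5k, a membrane subunit of the ATP synthase, are shown because each held the NRF1 and the ETS motif, which stand in capitals (the ETS letters in their reverse complement).
Cox6a1, chr5:115348909-115349208, minus strand: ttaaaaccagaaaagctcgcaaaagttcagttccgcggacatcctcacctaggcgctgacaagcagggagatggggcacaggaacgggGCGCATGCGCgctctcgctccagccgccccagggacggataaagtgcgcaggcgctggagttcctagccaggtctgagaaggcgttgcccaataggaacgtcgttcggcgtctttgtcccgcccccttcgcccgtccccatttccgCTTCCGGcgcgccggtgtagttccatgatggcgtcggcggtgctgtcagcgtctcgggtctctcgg
Atp5k, chr5:108434350-108434649, minus strand: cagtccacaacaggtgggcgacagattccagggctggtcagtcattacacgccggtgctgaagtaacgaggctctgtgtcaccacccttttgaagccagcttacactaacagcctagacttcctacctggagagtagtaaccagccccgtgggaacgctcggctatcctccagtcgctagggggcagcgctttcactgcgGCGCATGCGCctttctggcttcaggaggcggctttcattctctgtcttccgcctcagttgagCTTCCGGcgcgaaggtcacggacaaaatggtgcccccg
With the brightest probe set of each gene, Ndufa1, Ndufb11 and Cox7a2l are the only members that passed a test in the comparisons that follow. Their windows held none of the 4 motifs, and are shown in lower case throughout as the sequence beside which those results stand.
Ndufa1, chrX:37191189-37191488, minus strand: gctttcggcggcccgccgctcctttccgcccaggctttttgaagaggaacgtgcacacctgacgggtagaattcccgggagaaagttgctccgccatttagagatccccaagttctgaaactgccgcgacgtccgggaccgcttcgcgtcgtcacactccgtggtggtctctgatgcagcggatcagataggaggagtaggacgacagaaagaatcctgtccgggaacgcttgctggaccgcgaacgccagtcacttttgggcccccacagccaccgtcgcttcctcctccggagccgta
Ndufb11, chrX:20617570-20617869, minus strand: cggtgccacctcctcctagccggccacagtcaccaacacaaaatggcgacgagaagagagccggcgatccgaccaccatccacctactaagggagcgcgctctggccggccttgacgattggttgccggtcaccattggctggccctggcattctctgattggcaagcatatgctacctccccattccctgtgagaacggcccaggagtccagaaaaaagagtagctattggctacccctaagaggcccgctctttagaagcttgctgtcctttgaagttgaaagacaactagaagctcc
Cox7a2l, chr17:83514284-83514583, minus strand: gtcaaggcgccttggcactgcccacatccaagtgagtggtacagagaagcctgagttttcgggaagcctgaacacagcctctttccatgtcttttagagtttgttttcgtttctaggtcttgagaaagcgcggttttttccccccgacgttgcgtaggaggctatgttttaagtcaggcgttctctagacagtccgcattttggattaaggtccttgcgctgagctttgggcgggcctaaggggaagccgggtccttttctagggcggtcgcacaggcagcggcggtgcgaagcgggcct
A match describes letters in a window, not a bound factor, and nothing follows from its absence about a factor.

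Line medians of the subunits differed by small amounts, though by more than those of all genes. Clone 11 was most often the highest line and clone 9 most often the lowest. Each gene's log2(signal + 18.85) was set against its own mean over the 6 lines, so that no probe set was compared with another. The median deviation of the 74 genes was 0.01 in clone 2 and 0.04 in the original cells, and in clones 3, 9, 10 and 11 it was -0.09, -0.12, 0.02 and 0.14. Over all 10342 genes past the filter the 6 medians lay between -0.01 and 0.01 as rounded. Clone 11 was the highest line for 29 of 74 subunits, which is 39.2% against 16.3% of all genes. Clone 9 was the lowest for 33, which is 44.6% against 22.1% of all genes. The original cells were the lowest for none of the 74, against 8.86% of all genes.

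The order of clone 11 above clone 9 held in each complex. Complex I had medians of 0.12 in clone 11 and -0.14 in clone 9, complex III of 0.12 and -0.19, complex IV of 0.19 and -0.10, complex V of 0.14 and -0.12, and the 4 genes of complex II of 0.06 and -0.08. Clone 11 was the highest line for 6 of 12 complex IV genes and for 8 of 17 complex V genes. Clone 2 had its highest median, 0.13, for complex III. With 1 array a line, these are descriptions with no test. The 2 lines that differ most here, clones 11 and 9, were also the 2 with the most Aqp2.

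**Figure D1:**
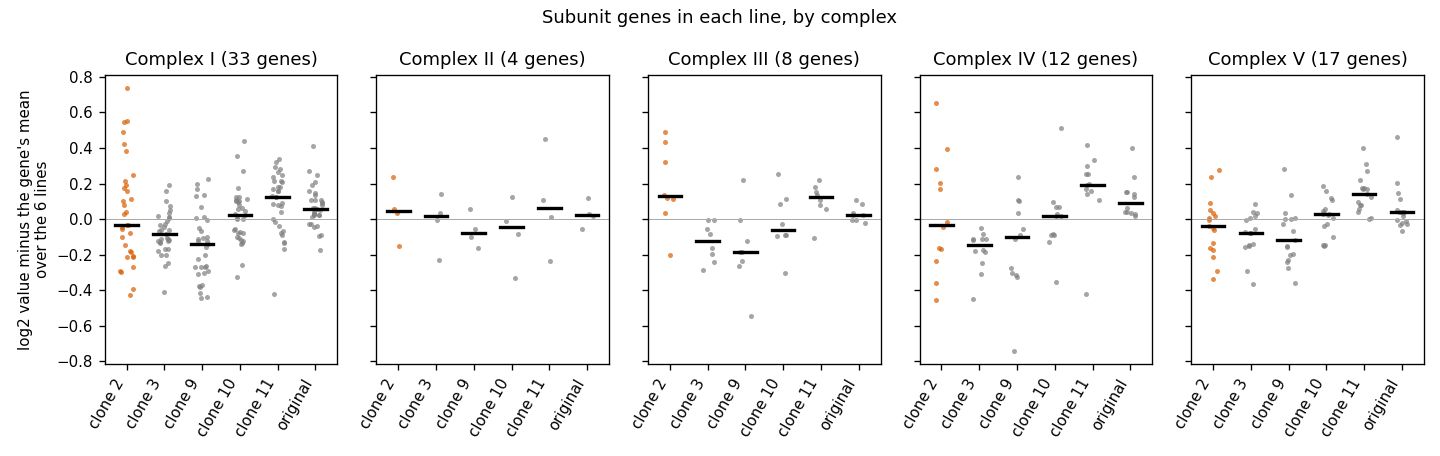
Each point is a subunit gene past the filter, placed by line (horizontal) and by its log2 value minus its mean over the 6 lines (vertical), in a panel for each complex; black bars are medians and clone 2 is orange. In clone 11 the medians of all 5 complexes lie above 0 (0.06 to 0.19), and in clone 9 all lie below 0 (-0.19 to -0.08).

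Clone 2 against the 5 expressing lines asks which subunit transcripts separate the line labelled as lacking AQP2. As a group they were centred near 0, as all genes were: the median log2 difference of the 74 genes was 0.01, and so was that of all 10342 genes. Of the 74, 38 were positive and 36 negative, which is 51.4% positive against 51.5% of all genes. Ndufa1 and Ndufb11, accessory subunits of complex I, were higher in clone 2 by the limma test (adjusted p under 0.05), and no subunit was lower. Of all 22518 probe sets tested, 0.817% were called higher and 1.67% lower, a split of 184 to 376. That split became 254 to 232 when arrays were centred on their medians. Of the 10342 genes, with 1 probe set each, 133 were called higher and 192 lower. At an unadjusted limma p under 0.05, 9 subunits were higher and 10 lower (12.2% and 13.5%), near the 10.2% and 12.1% of all genes. Clone 2 lay above every expressing line for 19 of the 74 subunits (25.7%) and below every one for 18 (24.3%). Over all genes these shares were a little higher, at 29% and 26.9%, and over all probe sets they were 24.3% and 29.3%. The subunit shares were thus close to the background. As these are whole cultures, fewer cells with a transcript and less of it per cell cannot be told apart.

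The differences of the subunits ran from -0.55 for Cox7a2l to 0.89 for Ndufa1, and 10 of 74 lay beyond 0.5 in size (13.5%, against 21.1% of all genes). The SD over the 5 expressing lines had a median of 0.165 on the log2 scale, against 0.184 over all genes. Other probe sets of the same genes mostly gave the same sign. Of 66 further probe sets past the filter, from 42 genes, 55 had the sign of the one used. So did all 19 from the 11 genes with a difference beyond 0.3. Sizes could differ: dimmer probe sets gave 0.55 for Uqcrb and 0.71 for Atp5o, against 0.04 and 0.02 with those used.

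**Figure D2:**
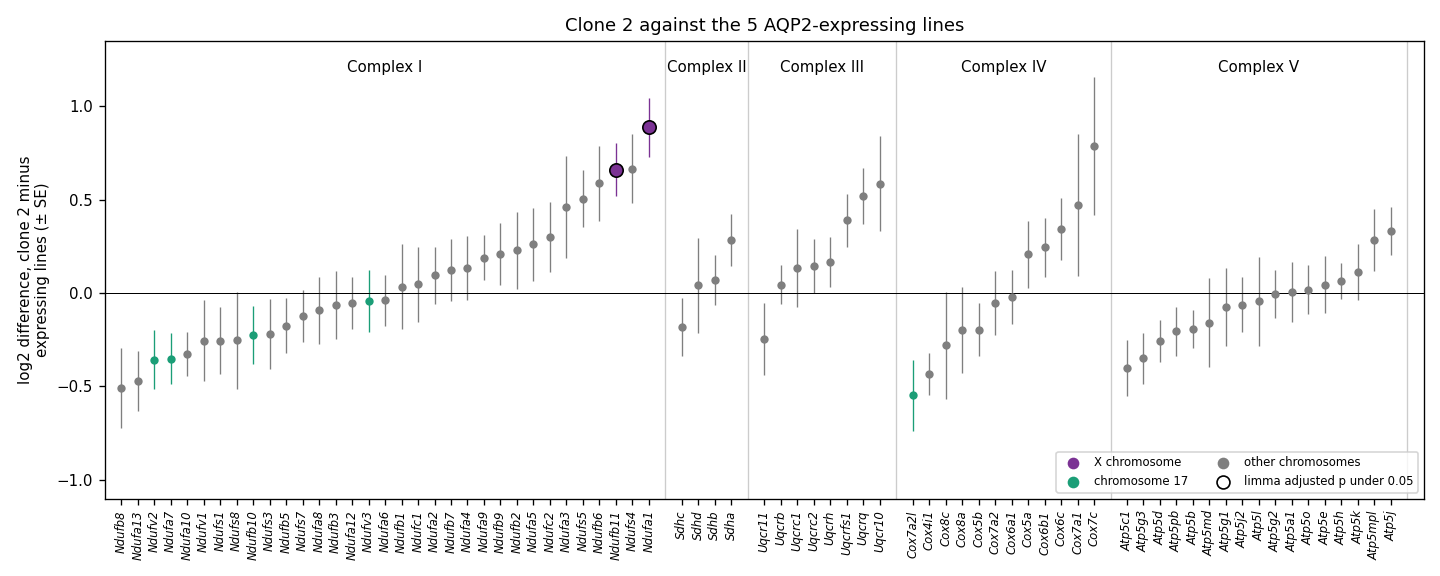
Points are log2 differences of clone 2 minus the mean of the 5 expressing lines (vertical, bars are the SE of the limma fit) for 74 subunit genes, ordered within each complex (horizontal). Ringed points passed the test; both are on the X chromosome, and the complex medians lie between -0.04 and 0.16.

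Complex I held both calls. Ndufa1, a small accessory subunit of the membrane arm encoded on the X chromosome (probe set of the gene at chrX:37187588-37191238, GRCm38.p6), had a signal of 6440.3 in clone 2. Clones 3, 9, 10 and 11 read 3242, 3109.6, 3650.1 and 3429, and the original cells read 4030.8. Clone 2 stood above all of them, and their mean was 3492 ± 363 (SD, n = 5), so that the log2 difference was 0.89 (SE 0.157, limma adjusted p = 0.0295). Ndufb11, also an accessory subunit of the membrane arm and X-linked (chrX:20615326-20617619), read 7997.1 in clone 2. In clones 3, 9, 10 and 11 it read 5022.9, 4421.9, 5010.2 and 5405.4, and in the original cells 5518.3. Again no expressing line reached clone 2, and the difference from their mean of 5076 ± 430 (SD, n = 5) was 0.66 (SE 0.141, limma adjusted p = 0.0492).

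Neither call was firm. That of Ndufa1 was lost without clone 3 (limma adjusted p = 0.0536) or clone 11 (0.0569), when low signals were kept (0.0557) and with no variance trend (0.0796). That of Ndufb11 was lost without clone 3 (limma adjusted p = 0.0852), clone 10 (0.0765), clone 11 (0.0724) or the original cells (0.0845), when low signals were kept (0.0999) and with no variance trend (0.123). When every gene was first centred on its chromosome, the differences were 0.47 for Ndufa1 (limma adjusted p = 0.225) and 0.25 for Ndufb11 (0.543), so neither was called.

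The other accessory subunits spread to both sides. Of 27 accessory genes past the filter, with Ndufa4 counted here by its symbol, 16 lay above 0 and 11 below, with a median of 0.10. Ndufs4, a peripheral subunit whose loss causes mitochondrial disease, read 2625.5 in clone 2, against 1726.1, 1702.6, 1684.3 and 1328.5 in clones 3, 9, 10 and 11 and 1853 in the original cells. Clone 2 was thus the highest line, with a log2 difference of 0.67 that missed the threshold (limma adjusted p = 0.0953). Ndufb6 read 3662.2 against 1916.4 to 2802.8 (0.59), and Ndufs5 read 3098.6 against 1910.9 to 2358.5 (0.50), both with clone 2 the highest line. On the low side, Ndufb8, a membrane-arm subunit often used as a marker of assembled complex I, read 3796.1 in clone 2 and 4538.9 to 6785.9 in the others (-0.51). Ndufa13 read 4997.8 against 5792.5 to 7665.8 (-0.47), and clone 2 was the lowest line for both. Ndufa10, the complex I gene with the smallest residual spread, read 3016.9 in clone 2 against a narrow 3672 to 3915.9 (-0.33, limma adjusted p = 0.174).

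The 6 core subunits of complex I analysed here, most of which carry its redox centres, lay below 0. They were Ndufv1 (log2 difference -0.26), which binds the flavin that oxidises NADH, the iron-sulfur proteins Ndufv2 (-0.36), Ndufs1 (-0.25), Ndufs7 (-0.12) and Ndufs8 (-0.25), and Ndufs3 (-0.22). Ndufv2 read 4061.7 in clone 2, against 4784.7, 5496.2, 4660.6 and 6086.2 in clones 3, 9, 10 and 11 and 5142.2 in the original cells. Clone 2 was below all expressing lines for 4 of the 6 genes, but not for Ndufs8 and Ndufv1, and the limma test called 0 of the 6, with 1 at an unadjusted p under 0.05. Over all genes, clone 2 lay below every expressing line for 26.9%, and 12.1% were lower at an unadjusted limma p under 0.05. This group of 6 was formed after the values were seen. After centring on chromosomes only 1 of the 6 lay below 0.

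In complex II, succinate dehydrogenase, the limma test called 0 of 4 genes, and 0 had an unadjusted p under 0.05. The differences were 0.28 for Sdha, the flavoprotein, 0.07 for Sdhb, the iron-sulfur subunit, and -0.18 and 0.04 for the membrane anchors Sdhc and Sdhd. Sdha read 5547.6 in clone 2 and 3993.4 to 4828.4 in the others, so that clone 2 was the highest line (limma adjusted p = 0.288). Sdhd varied most among the expressing lines, from 1770 in clone 10 to 3052.3 in clone 11, with 2282.4 in clone 2 inside that range. Sdhb stayed within 3052.8 to 3556.7 in all 6 lines.

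Complex III had a median difference of 0.16, which became 0.11 after centring on chromosomes. Before centring, 7 of 8 genes lay above 0, against 51.5% of all genes. The limma test called none of the 8. At an unadjusted limma p under 0.05, 3 were higher, against 10.2% of all genes, and none was lower. Uqcr10, a small subunit, read 3760 in clone 2, against 2188.5, 1825.6, 2842.3 and 2978.7 in clones 3, 9, 10 and 11 and 2886.9 in the original cells. Its log2 difference of 0.58 (SE 0.255, limma adjusted p = 0.243) stood beside an SD of 509 around a mean of 2544 in the expressing lines. Uqcrq was tighter, with 3656.8 in clone 2 and 2292.3 to 2812.1 in the others (0.52, limma adjusted p = 0.104). Uqcrfs1, the Rieske iron-sulfur protein, read 5231.2 in clone 2 and 3642 to 4503.6 in the others (0.39), again with clone 2 the highest line. The core proteins Uqcrc1 and Uqcrc2 lay at 0.13 and 0.15, with clone 2 inside the range of the other lines. Uqcrb lay at 0.04, from 20077 to 23385 over the 6 lines. A dimmer probe set of Uqcrb read 4404.3 in clone 2 and 2385.6 to 3814.6 in the others (0.55, limma adjusted p = 0.234). Uqcr11 was the gene below 0 (-0.24).

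In complex IV, cytochrome c oxidase, the ubiquitous isoforms were measured and most tissue-restricted ones were not. Cox4i1, the common form of subunit 4, read 10095 in clone 2, against 12538, 13917, 13158 and 14289 in clones 3, 9, 10 and 11 and 14413 in the original cells. Clone 2 was the lowest line, at -0.43 (SE 0.112, limma adjusted p = 0.0774), and that difference kept to between -0.46 and -0.34 over all settings tried. Cox4i2, the hypoxia-linked form, read 2.2 to 90.6 and was not tested. Cox6a1 lay at -0.02 and Cox6b1 at 0.24, while their muscle and testis forms Cox6a2 and Cox6b2 read at most 101.2 and 29.5. Cox8a lay at -0.20, Cox8b read at most 24.2, and Cox8c, a testis form, read 211.3 to 369.8, with a difference of -0.28 (limma adjusted p = 0.626). Cox7a1, the muscle form, passed the filter narrowly at 77.1 to 192 (0.47, limma adjusted p = 0.523) beside Cox7a2 at 13127 to 19114 (-0.05).

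The extremes of complex IV were Cox7c and Cox7a2l. Cox7c had the largest difference of its complex, 0.79, on a dim probe set that read 327.5 in clone 2, against 142.1, 157.1, 295.5 and 145.3 in clones 3, 9, 10 and 11 and 205.6 in the original cells. Its SE of 0.368 was also large, and the limma adjusted p was 0.274. Cox7a2l, related to Cox7a2 in sequence and known as a factor that joins complexes III and IV into supercomplexes, read 4156.6 in clone 2. Clones 3, 9, 10 and 11 read 5043.4, 6740.3, 5391.6 and 7204, and the original cells read 6286.1. Clone 2 was the lowest, at -0.55 (SE 0.190, limma adjusted p = 0.158). Ndufa4, now assigned to complex IV despite its name, was counted by its symbol in complex I here. It lay at 0.13 with clone 2 inside the range of the others. Its hypoxia-linked relative Ndufa4l2, also counted in complex I, read 7.5 to 50.1 and was not tested.

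In complex V, the ATP synthase, differences were small, from -0.40 to 0.33, and the limma test called none. At an unadjusted limma p under 0.05, 1 gene was higher and 3 lower (5.88% and 17.6%), against 10.2% and 12.1% of all genes. Of the catalytic F1 part, Atp5c1, the rotor shaft, read 8253 in clone 2, against 9913.6, 11425, 10156 and 12922 in clones 3, 9, 10 and 11 and 10394 in the original cells. Clone 2 was the lowest line (-0.40, SE 0.150, limma adjusted p = 0.183). It was also the lowest for the catalytic beta subunit Atp5b (-0.19) and for the delta subunit Atp5d (-0.26), while the alpha subunit Atp5a1 lay at 0.00 and Atp5e at 0.04. The 3 genes that encode the same c-ring protein parted. Atp5g3 read 12797 in clone 2 and 14437 to 18903 in the others (-0.35, limma adjusted p = 0.203), whereas Atp5g1 (-0.07) and Atp5g2 (-0.01) had clone 2 inside the range. Of the stalk, Atp5j, coupling factor 6, read 8956.7 in clone 2 and 6294.3 to 7586.8 in the others (0.33, limma adjusted p = 0.197). Atp5pb lay at -0.21, Atp5o at 0.02 and Atp5h at 0.06. A dimmer probe set of Atp5o gave 0.71 (limma adjusted p = 0.153). Atp5h was the steadiest, at 12180 to 13318 over all 6 lines.

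The sign of a subunit's difference in clone 2 followed its chromosome. Genes of the X chromosome had a median log2 difference of 0.47 (297 genes past the filter, 87.2% above 0), and those of chromosome 17 one of -0.37 (507 genes, 8.28% above 0). Medians were also low on chromosomes 1 (-0.28), 10 (-0.24), 19 (-0.23) and 3 (-0.20), and high on 12 (0.22), 13 (0.20), 4 (0.19) and 7 (0.19). The 2 subunits on the X chromosome were the 2 called genes. The 5 on chromosome 17, Ndufa7, Ndufb10, Ndufv2, Ndufv3 and Cox7a2l, all lay below 0, with a median of -0.35. Of the 74 subunits, 62 (83.8%) had the sign of their chromosome's median, against 70% of the 10307 genes placed. Across the 74 genes the difference and the chromosome's median had a Pearson r of 0.76 and a Spearman rho of 0.75 (over all genes, r was 0.36). These describe points that share the clone 2 array and only 19 chromosome values, and genes are not independent replicates.

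After each line was centred on the median of every chromosome, the SD of the 74 differences was 0.209 in place of 0.316, and 2 subunits in place of 10 lay beyond 0.5. The 2 were Cox7c (0.63) and Ndufs4 (0.51), the core subunits of complex I lay between -0.07 and 0.13, and Cox7a2l lay at -0.16. The limma test then called 0 subunits, the smallest adjusted p being 0.142, with 8 at an unadjusted p under 0.05. Over all genes, the SD and the shares beyond 0.5 and at an unadjusted p under 0.05 are not given after centring. Whether these changes are particular to the subunits was thus not tested. Cox4i1, on chromosome 8, kept a difference of -0.37, and Ndufa13, also on it, one of -0.40. Genes of that chromosome had a median of -0.01 with quartiles of -0.37 and 0.23. Before centring, Cox4i1 stood at their 20.6th percentile.

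**Figure D3:**
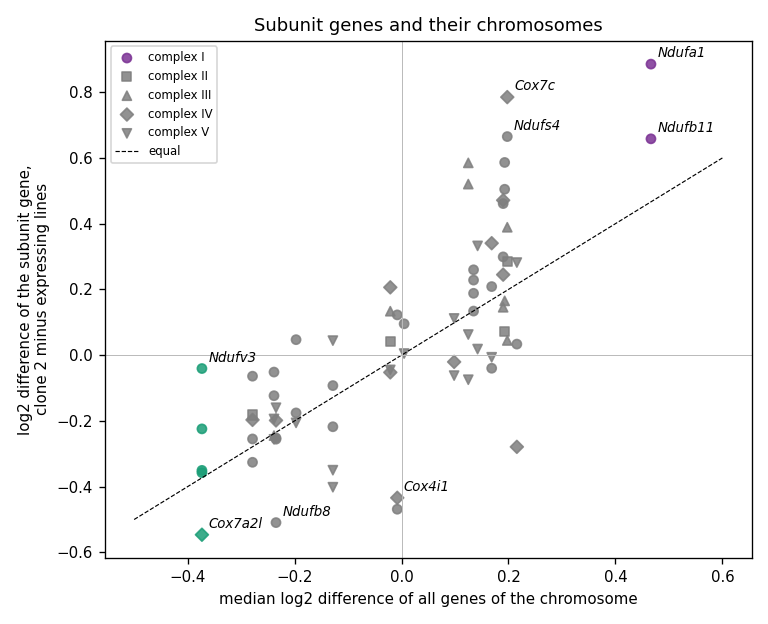
Each point is a subunit gene, placed by the median log2 difference of all genes of its chromosome (horizontal) and by its own log2 difference, clone 2 minus the expressing lines (vertical); shapes give the complex, purple the X chromosome, green chromosome 17, and the dashed line marks equal values. Of the 74 points, 62 lie in the 2 quadrants where both values have the same sign.

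Across the 6 lines, the slope of each transcript on log2 Aqp2 asks which transcripts go with AQP2 messenger RNA. This fit shares all samples with the comparison above, and clone 2 is its lowest point. The slopes of the 74 subunits had a median of 0.01 per unit of log2 Aqp2, with 39 positive and 35 negative. By limma, with the brightest probe set of each gene, Cox7a2l had a called positive slope and no subunit a called negative one. Of 22517 probe sets, 1.02% were called positive and 0.742% negative, a split of 230 to 167. That split became 158 to 185 when arrays were centred on their medians. Dimmer probe sets of Cox6c (-0.22, limma adjusted p = 0.0394) and Uqcrb (-0.16, 0.048) were called negative. The brightest ones of these genes gave -0.06 (0.454) and -0.02 (0.613). Dimmer probe sets of Cox7a2l were called positive, as its brightest was (0.18 and 0.16, limma adjusted p = 0.0295 and 0.0286). At an unadjusted limma p under 0.05 there were 9 positive and 9 negative subunits (12.2% each), against 11.9% and 10.1% of all genes.

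Cox7a2l stood in nearly the order of Aqp2. Its signal was lowest in clone 2 (4156.6) and highest in clone 11 (7204), the lines with the least and the most Aqp2, while clones 10 and 3 were exchanged, at 5391.6 and 5043.4. The slope was 0.15 (SE 0.027, limma adjusted p = 0.0379). Centring on chromosomes left 0.05 (limma adjusted p = 0.329), and the call was also lost without clone 3 (0.0503), clone 9 (0.0577), clone 11 (0.114) or the original cells (0.083), when low signals were kept (0.0865), with arrays centred on their medians (0.0584) and with no variance trend (0.116). Chromosome 17, which carries Cox7a2l, had median deviations of -0.31 in clone 2, -0.03, 0.17, -0.05 and 0.18 in clones 3, 9, 10 and 11 and 0.07 in the original cells, which is the order of Aqp2. Cox4i1 came next, with a slope of 0.10 (limma adjusted p = 0.0587).

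Genes that build or regulate the complexes were set beside the subunits. The largest called difference of a subunit in clone 2 was not in a nuclear gene: ND5, a core membrane subunit of complex I encoded by mitochondrial DNA, was the only one of 13 such messenger RNAs with a single-gene probe set. It read 16526 in clone 2, against 35584, 37130, 35436 and 36330 in clones 3, 9, 10 and 11 and 31167 in the original cells. Clone 2 lay far below the mean of 35129 ± 2315 (SD, n = 5), at a difference of -1.08 on the log2 scale (SE 0.108, limma adjusted p = 0.00381). ND5 stayed called in every setting it was run in, at -1.13 to -0.94 with adjusted p up to 0.0393. It could not be run with chromosome centring, since only nuclear chromosomes were centred.

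Among 23 regulators of mitochondrial gene expression past the filter, 1 was called lower and 0 higher, with a median of -0.11. At an unadjusted limma p under 0.05, 2 were higher and 2 lower, against 10.2% and 12.1% of all genes. The called gene was Twnk, the helicase that unwinds mitochondrial DNA for its replication. It read 465.4 in clone 2, against 881.5, 856.3, 824.2 and 851.9 in clones 3, 9, 10 and 11 and 1040.9 in the original cells, with clone 2 far below the rest (-0.90, SE 0.179, limma adjusted p = 0.0391). The call was lost without clone 3 (adjusted p = 0.0671), clone 10 (0.0559), clone 11 (0.0701) or the original cells (0.0744), when low signals were kept (0.0634), with arrays centred on their medians (0.0585), with no variance trend (0.0721) and after centring on chromosomes (0.0919). Tfam, which packages mitochondrial DNA, lay at -0.24, the transcription factors Nrf1 and Gabpa at 0.08 and 0.34, and the mitochondrial RNA polymerase Polrmt at -0.16. Ppargc1a, a coactivator of mitochondrial biogenesis, named after its values were seen, read 17.4 in clone 2 and 59.3 to 412.4 in the others, which the test did not call (-2.45, SE 0.769, limma adjusted p = 0.127).

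**Figure D4:**
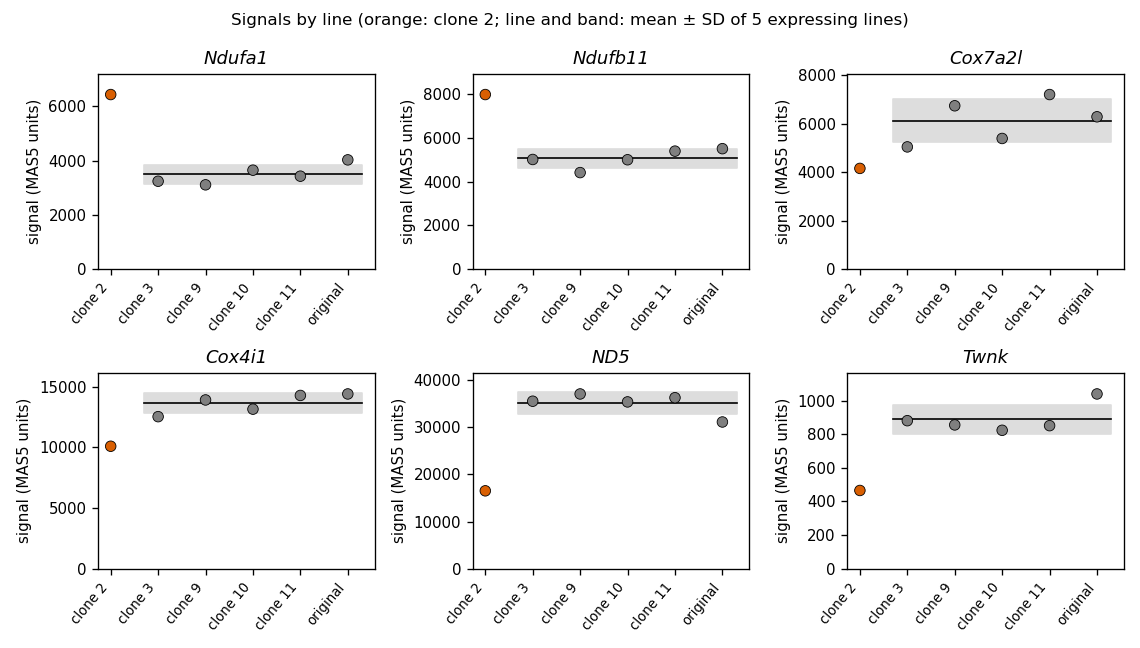
Signals in MAS5 units (vertical, from 0) of 6 genes in the 6 lines (horizontal); orange is clone 2, grey points are the expressing lines, and the black line and grey band are their mean ± SD (n = 5). Clone 2 lies above the other lines for Ndufa1 (6440.3) and Ndufb11 (7997.1) and below them for Cox7a2l (4156.6), Cox4i1 (10095), ND5 (16526) and Twnk (465.4).

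The assembly factors gave no call in clone 2. Over all genes, 10.2% were higher and 12.1% lower at an unadjusted limma p under 0.05. The limma test called 0 of 18 complex I factors (3 higher and 1 lower at an unadjusted p under 0.05, median 0.05), 0 of 9 of complexes II and III (1 and 1, median -0.36), 0 of 21 of complex IV (6 and 3, median 0.24) and 0 of 6 of the ATP synthase (1 and 1, median 0.25). The largest differences were those of Ndufaf1 (-0.61) for complex I, Sdhaf1 (0.94, limma adjusted p = 0.0881) for complex II, the copper chaperone Sco2 (-0.97, limma adjusted p = 0.0876) for complex IV and Atpaf1 (1.06, limma adjusted p = 0.32) for the ATP synthase. Sco2 read 191.9 in clone 2 against 336.5 to 514.6. In the slope on Aqp2, Coa6 of complex IV (0.18, limma adjusted p = 0.048) and Tmem242 of the ATP synthase (0.19, limma adjusted p = 0.0454) were called positive. The call of Coa6 was lost without clone 3 (limma adjusted p = 0.076), clone 10 (0.0516), clone 11 (0.132) or the original cells (0.103), and that of Tmem242, a gene of chromosome 17, without clone 3 (0.0627), clone 9 (0.0533), clone 11 (0.125) or the original cells (0.0876). Both were also lost when low signals were kept (0.0861 for each), with quantile normalization (0.0541 and 0.0528), with arrays centred on their medians (0.0658 and 0.0597) and with no variance trend (0.101 and 0.097). Centring on chromosomes left slopes of 0.15 for Coa6 (limma adjusted p = 0.139) and 0.10 for Tmem242 (0.239).

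Neighbouring pathways gave no call in clone 2 either. None of 17 electron carrier genes (3 higher and 1 lower at an unadjusted limma p under 0.05, median 0.09) or of 16 genes of pyruvate dehydrogenase and the tricarboxylic acid cycle (3 and 2, median 0.10) was called in clone 2. Their largest differences were those of Coq3, a ubiquinone synthesis enzyme (0.67), and Idh3g, a subunit of isocitrate dehydrogenase on the X chromosome (0.46, and 0.05 after centring on chromosomes). Of the electron carriers, the complex III subunit Cyc1 and the complex I subunit Ndufab1 both lay at 0.35 (limma adjusted p = 0.318 and 0.273). The 76 mitochondrial ribosomal protein genes, which translate mitochondrial messages, had 48 values above 0 and 28 below, a median of 0.11 and no call (14 higher and 7 lower at an unadjusted limma p under 0.05). Mrpl33 had a called negative slope on Aqp2 (-0.23, limma adjusted p = 0.0454), which was lost without clone 3 (0.0627), clone 9 (0.0656), clone 11 (0.0973) or the original cells (0.0907), when low signals were kept (0.0901), with quantile normalization (0.052), with no variance trend (0.0984) and after centring on chromosomes (0.0733). Of 8 hypoxia-linked mitochondrial genes past the filter none was called, 5 were higher at an unadjusted limma p under 0.05 and none lower, against 10.2% and 12.1% of all genes, and the median was 0.45. Bnip3, a mitophagy receptor, read 12746 in clone 2 and 6081.2 to 9014.3 in the others (0.81, limma adjusted p = 0.0537). For comparison the median over all genes was 0.01.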

How the data were processed

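The measurements were 6 Affymetrix mouse arrays, 1 per line, with 45101 probe sets. The values deposited by the authors are linear signal intensities of the MAS5 method. The submitters' processing notes name Affymetrix Expression Console 1.1. With controls and 2% of values at each end left out, every array had a mean of 498, so the arrays share a common scale. Low signals are noisy in this method, which subtracts mismatch probes. No detection calls were used here.

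Groups came from the labels. Gene names came from the platform's annotation, brought up to date with RefSeq names (GRCm38.p6). Without controls there were 45037 probe sets, of which 34945 had 1 gene, 932 several and 9160 none named.

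Signals were used as log2(signal + 18.85), where the added value is the 25th percentile over the table, which understates differences of low signals. Probe sets with a mean signal above 85.46, the median, were kept, 22518 in all. Both comparisons were fitted over all of them with limma 3.58.1 in R 4.3.3 (lmFit, eBayes with a mean-variance trend, two-sided, Benjamini-Hochberg adjustment, threshold 0.05, 4 residual degrees of freedom), and the fit was tested on simulated data. The Aqp2 probe set was left out of the slope fit. The number of arrays limits the precision.

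The members, gene lists and motifs were chosen with earlier results of these data known. Named genes were the members past a test, the 2 largest differences and the smallest residual spread per complex, isoform pairs, the Sdh genes, and per list up to 3 called genes or else the largest difference. Other genes were named after their values were seen. Alternatives were a doubled offset or none, a filter at the 75th percentile or none, median centring, quantile normalization, a robust eBayes or one without trend, centring on chromosomes, another choice of probe set, and leaving out each expressing line.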

Additional observations from a re-analysis of the deposited data

Results flagged for a closer look

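For 3 of the 74 subunits a single expressing line stood apart from the other 4, in that its gap to the nearest line, divided by the range of the 5, was above Dixon's critical value of 0.71. Chance passes this value in about 1 of 20 genes, and 3 of 74 is not above that share. For Ndufc2, a membrane-arm subunit of complex I, clone 9 read 4039.5 against 5417 to 5690.4 in the other expressing lines (gap over range 0.834). Ndufa9, a subunit near the ubiquinone site of complex I, read 4115.1 in clone 9 against 4456.2 to 4580.4 (0.733). Atp5h, subunit d of the ATP synthase stalk, read 12180 in clone 3 against 12837 to 13010.8 (0.791).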

How the results depend on the processing

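The count of 2 subunits higher in clone 2 was 0 after centring on chromosomes, with no filter and with no variance trend, and 0 to 2 when an expressing line was left out (0 without clone 3 or clone 11, 1 without clone 10 or the original cells). The count of 1 positive slope was 0 with no filter, with median centring, without the trend and after chromosome centring, 2 with a filter at the 75th percentile (Cox4i1 being added), and 0 to 2 with a line left out (2 without clone 10 and otherwise 0). No called result changed sign. The X chromosome median was 0.22 with no filter and 0.56 with median centring. The complex II median was 0.15 with median centring, 0.12 after chromosome centring and 0.0077 to 0.12 with a line left out, and that of complex I was 0.11 after chromosome centring.

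Over all probe sets, 184 higher and 376 lower in clone 2 became 76 and 134 with no filter, 69 and 150 without the trend, 95 and 202 after chromosome centring, 47 and 109 when the original cells were left out, and 324 and 618, 119 and 202, 117 and 233 or 84 and 167 when clone 9, 3, 10 or 11 was. The slope gave 230 and 167 calls, 30 and 21 with no filter, 0 and 1 without the trend, 64 and 70 after chromosome centring, 0 and 0 when clone 11 was left out (42 and 57, 101 and 88, 132 and 123 or 396 and 259 for the original cells and clones 3, 9 and 10), and 146 and 131 with quantile normalization. Of the single-gene values under alternatives, 428 kept their side of the threshold, 54 lost a call and 2 gained one. Most of the 428 belonged to results not called in the main fit, which had no call to lose. No paired analysis was possible because the labels give the groups no shared replicate numbers.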
